A study of Mus musculus with 2 samples.

Results

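Peaks of open chromatin near olfactory receptor genes (Olfr) and vomeronasal receptor genes (Vmn1r and Vmn2r) were described in 2 ATAC-seq libraries of mouse CD8+ T cells. A peak was a member where the nearest protein-coding start site within 100 kb of its summit belonged to a gene whose symbol starts with Olfr, Vmn1r or Vmn2r. The rule took 405 of 127423 peaks in vehicle and 813 of 179414 in TAMo, or 1218 of 306837 in all, here called receptor peaks. They were assigned among 1457 receptor genes on chromosomes 1 to 19, of which 1128 were Olfr, 208 Vmn1r and 121 Vmn2r genes.

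ATAC-seq uses a transposase that cuts accessible DNA and leaves sequencing adapters there. Both cultures held OT-I T cells, which carry a transgenic receptor for an ovalbumin peptide, and both were given that peptide (OVA257-264) for 48 h. The vehicle culture received vehicle and the TAMo culture received TAMos, cells purified from the spleens of mice with LLC (Lewis lung carcinoma) tumours by their CD11b+ Ly6G- Ly6C-high surface. CD8+ T cells were sorted from each culture before the library was made. Each group is 1 library, so no difference given here has a replicate check and no test between the groups was run; intervals cover counting error only.

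Odorant receptors are G-protein-coupled receptors of olfactory sensory neurons, each of which uses a single receptor allele, and the vomeronasal families detect pheromones and related cues in the vomeronasal organ. Their genes sit in large tandem clusters, with a coding region that for Olfr and Vmn1r genes lies within an exon. In T cells these genes are regarded as off, although their clusters lie beside genes that T cells use.

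The sequences below are RefSeq promoter windows (GRCm38.p6), from 250 bases before to 50 bases after the annotated start site. In the Olfr61 and Olfr769 windows the last 50 bases begin with atg. The annotated start there may thus be a start codon and not a transcription start. RefSeq had 1265 windows for 1260 receptor symbols, and a receptor peak had its summit inside 4 of them in vehicle and inside 7 in TAMo, the same 4 and a further 3. Of these 7, 5 are shown: Olfr49 and Olfr222 held summits in both libraries, Olfr550 had nearly equal reads, Olfr61 had the strongest TAMo summit without any vehicle peak, and Olfr769 held none of the marked motifs. Each is written 5′ to 3′ on the strand of the gene, and capitals mark matches on either strand to the AP-1 motif TGANTCA, the RUNX motif TGTGGT and the ETS motif CAGGAA.
Olfr49 (chr14:54282876-54283175, minus strand): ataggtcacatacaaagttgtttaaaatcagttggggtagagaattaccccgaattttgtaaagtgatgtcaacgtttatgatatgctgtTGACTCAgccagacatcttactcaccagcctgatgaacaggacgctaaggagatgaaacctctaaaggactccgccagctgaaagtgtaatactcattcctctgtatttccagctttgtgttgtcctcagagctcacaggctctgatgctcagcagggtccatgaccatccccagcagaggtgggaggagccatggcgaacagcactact
Olfr222 (chr11:59571689-59571988, minus strand): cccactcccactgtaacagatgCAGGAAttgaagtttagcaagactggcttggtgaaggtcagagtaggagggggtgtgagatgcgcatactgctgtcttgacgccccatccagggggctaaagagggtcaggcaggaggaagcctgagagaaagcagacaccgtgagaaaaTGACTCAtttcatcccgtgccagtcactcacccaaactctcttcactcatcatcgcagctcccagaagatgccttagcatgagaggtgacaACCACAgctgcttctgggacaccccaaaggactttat
Olfr550 (chr7:102578219-102578518, plus strand): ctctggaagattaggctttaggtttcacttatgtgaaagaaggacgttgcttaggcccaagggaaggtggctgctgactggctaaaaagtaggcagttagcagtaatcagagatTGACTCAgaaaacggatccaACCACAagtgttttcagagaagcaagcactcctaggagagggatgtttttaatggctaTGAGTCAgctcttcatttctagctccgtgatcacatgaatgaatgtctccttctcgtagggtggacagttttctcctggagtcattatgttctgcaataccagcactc
Olfr61 (chr7:140637453-140637752, plus strand): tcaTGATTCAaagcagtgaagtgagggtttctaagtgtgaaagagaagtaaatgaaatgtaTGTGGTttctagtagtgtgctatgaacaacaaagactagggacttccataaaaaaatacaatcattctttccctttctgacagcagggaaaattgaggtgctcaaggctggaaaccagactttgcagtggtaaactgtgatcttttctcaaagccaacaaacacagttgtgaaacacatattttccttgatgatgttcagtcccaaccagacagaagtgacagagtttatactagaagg
Olfr769 (chr10:129112374-129112673, minus strand): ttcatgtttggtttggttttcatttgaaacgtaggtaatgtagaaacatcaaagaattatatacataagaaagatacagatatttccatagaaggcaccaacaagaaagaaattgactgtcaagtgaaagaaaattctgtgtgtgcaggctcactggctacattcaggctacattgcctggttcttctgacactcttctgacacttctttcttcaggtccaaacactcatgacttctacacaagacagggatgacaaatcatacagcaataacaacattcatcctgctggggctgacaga

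The Olfr49 window had 99 summit reads in vehicle and 338 in TAMo, and its AP-1 match lies upstream of the summit. The Olfr222 window had 47 and 132 reads, the Olfr550 window 38 and 49, and the Olfr769 window 24 and 137. In the Olfr61 window the TAMo summit had 366 reads and no vehicle peak was called. The other windows with a TAMo summit were Olfr175, with 87 reads, and Olfr90, with 42 reads; at Olfr175 a vehicle peak of 22 reads overlapped the TAMo peak but had its summit outside the window. An AP-1 match was present in 5 of the 7 windows, against 15.8% of all receptor windows and 7.84% of all 31396 promoter windows. A RUNX match was also present in 5 of the 7, against 19.4% and 16.7%, and an ETS match in 2 of the 7, against 26.2% and 30.3%. AP-1, RUNX and ETS proteins are transcription factors that act at T cell enhancers; none of these matches overlaps another. With 7 windows, chosen because a summit lies in them, these shares are a description. How many receptor windows are set on a start codon was not counted, so receptor windows may differ in kind from all promoter windows. Receptor windows as a class were poor in G and C, with a median of 35.7% against 53.0% for all promoters, and 31.1% of them had no CpG against 5.25%. The homeodomain motif TAATTA was in 16.7% of receptor windows and 5.27% of all windows, and the TATA box TATAAA in 39.6% and 13.6%. A run of 50 bases shared with the window of another gene was found in 316 receptor windows, 24.98%, against 17.2% of all windows, and in none of the 7.

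Receptor territory was sparsely open in both libraries, and the TAMo list held about 2 times as many receptor peaks as the vehicle list. The bases whose nearest coding start site within 100 kb is a receptor gene came to 50.9 Mb. Vehicle had 7.96 peaks per Mb there and TAMo had 15.97, against 79.5 and 109 over the territory of all 20807 coding genes. The receptor density was therefore 0.1001 of the general density in vehicle and 0.147 of it in TAMo. How uniquely reads can be placed in these tandem repeats, which could lower the number of peaks called there, was not tested. The number of receptor peaks was 2.01 times higher in TAMo, while the whole list was 1.41 times longer. The TAMo background, which stands for depth, was 1.23 times that of vehicle. The part of depth in the number of receptor peaks was not tested. With the TAMo list shortened to the strongest peaks, as many as the vehicle list holds, it held 476 receptor peaks against 405.

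The gain in number was seen in each of the 3 families. Olfr genes had 332 peaks in vehicle and 674 in TAMo, or 11.1 and 22.4 per Mb. Vmn1r genes had 32 and 66, or 3.45 and 7.11 per Mb, and Vmn2r genes had 41 and 73, or 3.54 and 6.31 per Mb. Both vomeronasal families were thus less densely open than Olfr genes in either culture. Other tandem gene families of epithelium and sensory cells served for comparison. Keratin and keratin-associated genes had 84 and 142 peaks (34.0 and 57.4 per Mb), defensins 28 and 52 (14.1 and 26.2 per Mb), and taste and trace amine receptors 23 and 33 (14.3 and 20.5 per Mb). Their TAMo to vehicle ratios were 1.69, 1.86 and 1.43, all above the 1.41 of the whole lists and below the 2.01 of the receptor peaks. These differences between families were not tested.

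Most receptor genes had no peak at all. At least 1 peak was assigned to 171 receptor genes in vehicle, 11.7%, and to 326 in TAMo, 22.4%, against 78.7% and 82.7% of all coding genes. In TAMo, 250 receptor genes had more peaks than in vehicle, 21 had fewer, 61 had the same number above 0, and 1125 had none in either list. The whole TAMo list was 1.41 times longer, and the like counts over all coding genes are not given here. The 20 genes with most peaks held 34.8% of the vehicle receptor peaks and 23.6% of those in TAMo, so that TAMo peaks were spread over more genes.

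The clusters differed widely in how open they were. Receptor start sites no more than 1 Mb apart formed 66 clusters, 28 of them with at least 10 genes and together with 1331 genes. Across these 28 the median density was 6.49 peaks per Mb in vehicle and 13.9 in TAMo. TAMo, with a whole list 1.41 times longer, had more peaks in 26 and fewer in 1, and 1 had none in either library. The cluster with fewer was Vmn1r40 to Vmn1r54 on chromosome 6, with 4 peaks in vehicle and 3 in TAMo, and the cluster without a peak was Vmn2r8 to Vmn2r17 on chromosome 5.

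At the open end stood Olfr522 to Olfr541 on chromosome 7, with 19 genes, which had 40 vehicle peaks and 58 TAMo peaks, or 79.7 and 116 per Mb. Its density was thus that of coding genes in general. At the closed end, the 28 genes from Olfr338 to Olfr368 on chromosome 2 had no vehicle peak and 1 TAMo peak, and the 65 genes from Vmn1r91 to Vmn1r183 on chromosome 7 likewise had 0 and 1. The large ratios arose in clusters that were nearly closed in vehicle. The 227 genes from Olfr987 to Olfr1274-ps on chromosome 2 had 6 and 43 peaks, and the 37 genes from Olfr24 to Olfr18 on chromosome 9 had 1 and 17. The 95 genes from Olfr160 to Olfr986 on chromosome 9 had 2 and 15, and the 33 genes from Olfr291 to Vmn2r79 on chromosome 7 had 2 and 16. Each vehicle peak of these 4 clusters overlapped a TAMo peak. The strongest TAMo-library peaks of the chromosome 9 clusters were weak, at 75 and 70 reads.

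**Figure D1:**
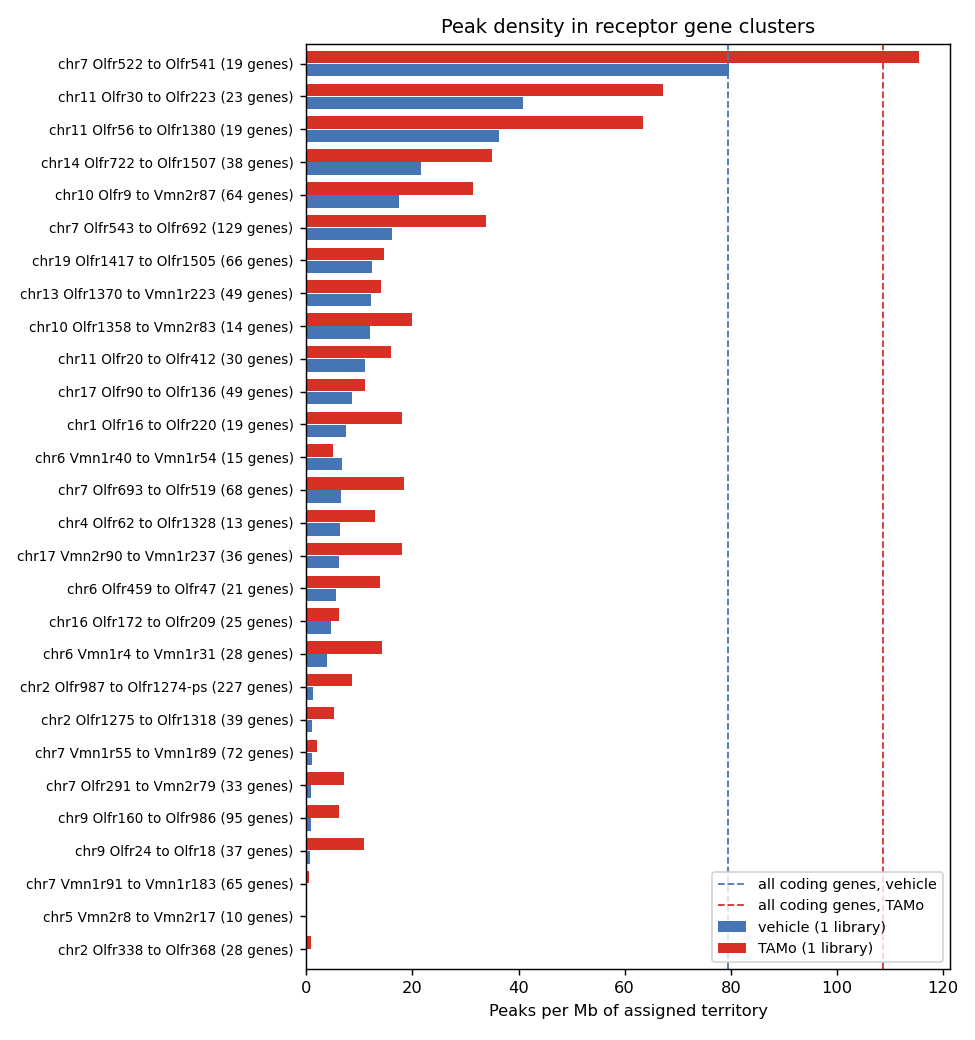
Peaks per Mb of assigned territory in the 28 receptor clusters with at least 10 genes, in vehicle (blue) and TAMo (red), 1 library each; dashed lines give the density over all coding genes, 79.5 and 109 per Mb. Only Olfr522 to Olfr541 reaches the general density, and the TAMo bar is the longer one in 26 clusters.

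Peak density and the overlap of the lists differed with the position in a cluster. A peak was called inside where the coding start sites flanking it on both sides were receptor genes, and at the edge otherwise. Inside, 187 vehicle peaks and 494 TAMo peaks were found, or 4.54 and 11.98 per Mb, a ratio of 2.64. At edges there were 218 and 319, or 22.5 and 33.0 per Mb, a ratio of 1.46 that is close to that of the whole lists. The TAMo to vehicle ratio also increased with the distance to the next start site of another coding gene. Within 20 kb of such a start site there were 77 and 106 receptor peaks, a ratio of 1.38, and from 20 to 50 kb there were 134 and 230, a ratio of 1.72. From 100 to 300 kb there were 81 and 215, a ratio of 2.65, and beyond 300 kb 27 and 109, a ratio of 4.04.

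The same direction was present in the lists as a whole. Over all peaks, the ratio was 1.09 within 1 kb of any coding start site, 1.65 from 100 to 300 kb and 2.34 beyond 300 kb. Receptor peaks went the other way with respect to their own start sites: the ratio was 2.88 within 1 kb of the receptor start, 2.34 from 1 to 10 kb, 1.56 from 10 to 50 kb and 1.5 from 50 to 100 kb.

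**Figure D2:**
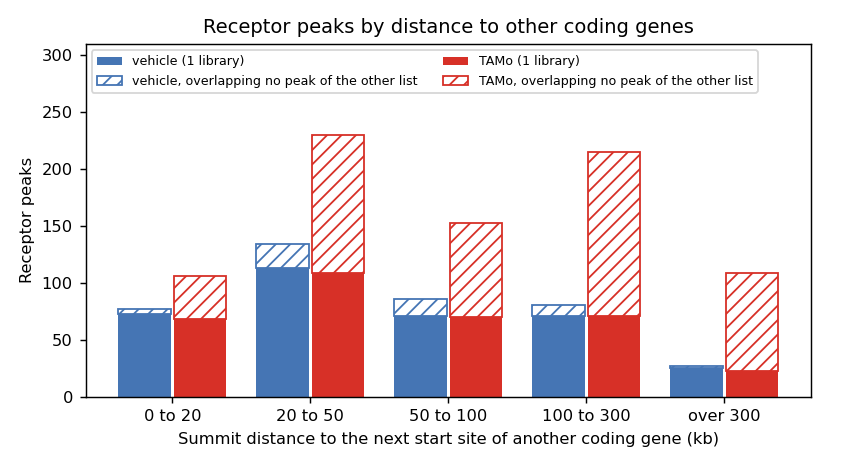
Number of receptor peaks (vertical axis) by the distance in kb from the summit to the next start site of another coding gene, in vehicle (blue) and TAMo (red), 1 library each; hatched parts overlap no peak of the other list. Beyond 300 kb there are 27 vehicle peaks and 109 TAMo peaks, and most of the TAMo bar is hatched.

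Nearly all vehicle receptor peaks recurred in TAMo, whereas most TAMo receptor peaks had no counterpart in vehicle. Of the vehicle receptor peaks, 353 of 405 overlapped a TAMo peak by at least 1 bp, 87.2% (95% Wilson interval 83.5 to 90.1%), and 52 overlapped none; over all vehicle peaks 12.5% overlapped none. Of the TAMo receptor peaks, 341 of 813 overlapped a vehicle peak, 41.9% (38.6 to 45.4%), and 472 overlapped none, where 39.5% of all TAMo peaks did. The vehicle share was thus near that of all peaks and the TAMo share of peaks without overlap was above it. Beyond 300 kb from another coding gene 21.1% of TAMo receptor peaks overlapped a vehicle peak, and within 20 kb 64.2% did. The overlap of all TAMo peaks also fell with distance. It was 50.9% from 100 to 300 kb of any coding start site and 34.5% beyond 300 kb. Inside clusters 32.2% (28.2 to 36.4%) overlapped, and at edges 57.1% (51.6 to 62.4%). In the comparison families the TAMo peaks that overlapped a vehicle peak were 67 of 142 for keratins, 26 of 52 for defensins and 15 of 33 for taste and trace amine receptors. A missing peak is a missing call, since coverage outside called peaks was not analysed here.

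Receptor peaks were weaker than peaks in general, and in each list those without overlap were weaker than those with it. Their summits had a median of 45 reads in vehicle and 44 in TAMo, against 70 and 83 over all peaks; divided by the most frequent background of each library, 4.71 and 5.80 reads, it was 9.56 and 7.58 against 14.9 and 14.3. TAMo receptor peaks that overlapped no vehicle peak had a median of 31 reads, with an interquartile range of 24 to 47 and a maximum of 366, against 95 for those that did overlap. In vehicle the medians were 26 and 51 reads. Of the 472 TAMo peaks without overlap, 72 reached 10 times the background, 15.3%, against 31.6% of all TAMo peaks without overlap. The gain was still present above higher bounds: at 10 times the background there were 189 and 312 receptor peaks, a ratio of 1.65 (all peaks 1.37), and at 50 times 35 and 58, a ratio of 1.66 (all peaks 1.33). At 100 times there were 8 and 12. At like strength the overlap was still lower for TAMo receptor peaks, in the 8 weaker deciles of the TAMo list: in the third decile from the weakest 21.9% overlapped a vehicle peak against 34.4% of all peaks there, and in the fifth 41.9% against 54.5%. In the strongest decile it was 100% of 28 receptor peaks, and 99.4% of all.

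**Figure D3:**
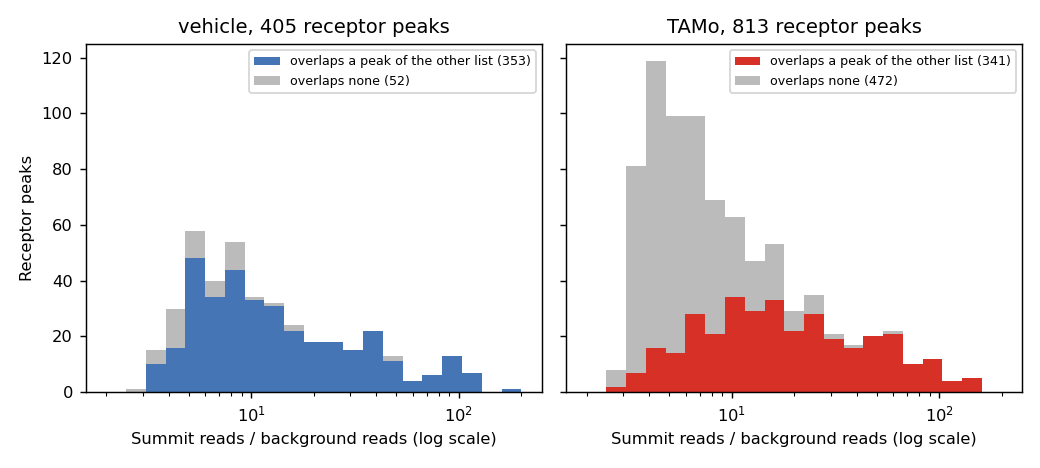
Number of receptor peaks by summit reads divided by the background reads of the library (log scale), for vehicle on the left (405 peaks) and TAMo on the right (813 peaks); grey marks peaks that overlap no peak of the other list. The 472 grey TAMo peaks lie mainly below 10 times the background.

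Receptor peaks lay mostly between genes. In vehicle 240 of 405, 59.3%, and in TAMo 463 of 813, 56.9%, lay in no annotated gene. Within a receptor gene itself lay 92 vehicle peaks, 22.7% (18.9 to 27.0%), and 251 TAMo peaks, 30.9% (27.8 to 34.1%), split into 49 and 140 in exons and 43 and 111 in introns. Noncoding genes and pseudogenes held 53 and 68, and other coding genes 20 and 31. The like shares over all peaks are not given here. Some members belong by position to other loci. The start site of another coding gene lay within 100 kb of 297 vehicle peaks, 73.3%, and 489 TAMo peaks, 60.1%. A further 7 and 13 peaks lay between the gene segments of the T cell receptor alpha and delta locus (chr14:52427928-54224206, mm10), which is interleaved with Olfr genes.

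The summit was within 1 kb of a receptor start site, here called a promoter peak, for 49 vehicle peaks, 12.1% (9.27 to 15.6%), and 141 TAMo peaks, 17.3% (14.9 to 20.1%). The start of any annotated transcript counted, so a promoter peak can lie well inside the gene. The Olfr46 gene, on the plus strand, begins at chr7:140601269, and its vehicle promoter peak is chr7:140610344-140610681. How many promoter peaks lie in this way was not counted. Over all peaks the promoter share was 16.7% in vehicle and 12.9% in TAMo, so that the receptor share was higher in TAMo where the general share was lower. Of the TAMo receptor peaks without overlap, 97 were promoter peaks, 20.6%, against 3543 of all 70854 TAMo peaks without overlap. In the 500 bases downstream of the start there were 13 vehicle summits and 53 TAMo summits, and in the 500 bases upstream 16 and 32.

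**Figure D4:**
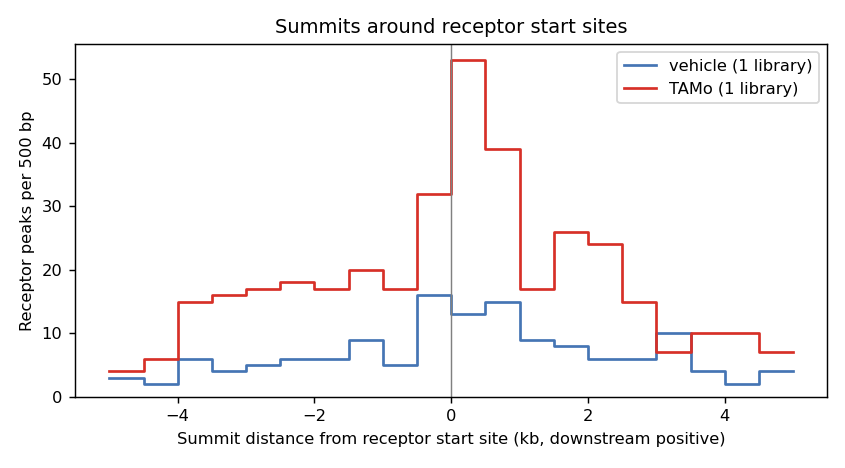
Receptor peaks per 500 bp by the distance in kb of the summit from the receptor start site (downstream positive), in vehicle (blue) and TAMo (red), 1 library each. The TAMo line has its highest step, 53 summits, just downstream of the start, where vehicle has 13.

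A promoter peak was found at 35 receptor genes in vehicle, 2.40% (1.73 to 3.32%), and at 105 in TAMo, 7.21% (5.99 to 8.65%); over all coding genes it was 61.7% and 64.1%. Both lists had one at 31 receptor genes. TAMo alone had one at 74, 5.08% of receptor genes, where 4.12% of all coding genes had a promoter peak in TAMo alone, and vehicle alone at 4, 0.275%, where 1.70% of all did. By family, Olfr genes with a promoter peak numbered 33 and 96, Vmn1r genes 2 and 7, and Vmn2r genes 0 and 2.

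The promoter peaks ranked highest by −log10 q in vehicle were at Olfr genes. At Olfr525 (ENSMUSG00000061489.3, chromosome 7) the summit had 783 reads in vehicle (chr7:140320541-140321621) and 791 in TAMo. At Olfr433, an Olfr gene next to the interferon-inducible gene Ifi205 on chromosome 1, it had 546 and 582, and at Olfr530 on chromosome 7 it had 570 and 681. At Olfr221 on chromosome 14 it had 242 and 289. These 4 led the vehicle ranking; the TAMo background was 1.23 times that of vehicle, and after division by the backgrounds none of the 4 was higher in TAMo. Olfr56 on chromosome 11, below the 10 genes of that ranking and named after its values were seen, had more reads than Olfr221, 249 in vehicle and 428 in TAMo (log2 ratio 0.48, 0.25 to 0.71). Its summits lay 255 bp (vehicle) and 267 bp (TAMo) from the start of Ifi47, another coding gene that holds the vehicle summit in an intron. The local background there was 92.2 reads in vehicle, so the fold over it was only 2.68. Next by rank came Olfr658 with 125 and 235 reads, Olfr49 with 99 and 338, Olfr646 with 92 and 261, Olfr156 with 80 and 147, and Olfr15 with 65 and 135. At Olfr557 the vehicle summit had 60 reads and the TAMo summit 48. The strongest TAMo promoter peak by reads was at Vmn1r4 on chromosome 6, with 822 reads 39 bp from its start; the start of Nt5c3, a nucleotidase gene, is 51 bp from that summit, and the peak overlapped a vehicle peak assigned to another gene.

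For 27 receptor genes the strongest promoter peaks of the libraries overlapped, which allows a ratio of their coverage. The log2 ratio, TAMo over vehicle after division by background, had a median of 0.61 with quartiles of -0.05 and 1.45. Over all 11879 coding genes with such a pair the median was 0.03, but the 2 sets were not matched for strength. The 95% exact binomial interval of the ratio lay above 0 at 16 of the 27 receptor genes and below 0 at 5, where 26.7% and 17.6% of all such genes did so. The ratio was at least 2-fold higher at 10 of the 27 and at least 2-fold lower at 1. The like share of all 11879 genes is not given here. By region, 14 of 41 receptor promoter regions were at least 2-fold higher, against 4.93% of all 17636, which had more reads. Among the 10 genes were Olfr552 with 39 reads in vehicle and 311 in TAMo (2.69, interval 2.21 to 3.21) and Olfr46 with 42 and 262 (2.34, 1.86 to 2.84). Vmn1r39, also among them, had 55 and 183 reads (1.43, 0.99 to 1.89). Olfr49, shown above, had 1.47 (1.14 to 1.81). Vmn1r39 was named after its values were seen, as the highest ratio of a vomeronasal gene.

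Away from promoters the receptor peaks ranked highest by −log10 q were present in both lists. The peak nearest Olfr291 on chromosome 7, 73895 bp from its start, had 575 reads in vehicle (chr7:84779191-84779868) and 691 in TAMo. The peak nearest Vmn2r87 on chromosome 10 had 569 and 669, and that nearest Olfr288 on chromosome 15 had 496 in vehicle and 573 in TAMo. Others had more reads in TAMo: the peak nearest Olfr266 on chromosome 3, in the noncoding gene Gm35507 with the leukocyte tetraspanin gene Cd53 as the next coding gene, had 445 and 829, and the one in Olfr432, again beside Ifi205, had 437 and 832. Near Olfr545 the strongest distal peak had 363 and 616 reads, and near Olfr1392 181 and 485. The highest ranked near Olfr1393 in vehicle had 442 reads. By reads alone, a region near Olfr1423 on chromosome 19 also stood among the strongest and went the other way, with 552 reads in vehicle (chr19:12002098-12002590) and 288 in TAMo (log2 ratio -1.24, -1.45 to -1.03). The next coding start site was 89701 bp from the vehicle summit near Olfr291, 219146 bp near Vmn2r87 and 14376 bp near Olfr288.

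Regions with a peak in both lists numbered 332 for receptors. The median log2 coverage ratio was 0.38, with quartiles of -0.21 and 0.98, against 0.28 (-0.12 and 0.89) over all 103828 shared regions; relative to that general shift the receptor median was 0.11. The interval lay above 0 at 144 and below 0 at 50, where 43.9% and 13.7% of all shared regions did so. At least 2-fold higher in TAMo were 82, 24.7% against 21.9% of all, and at least 2-fold lower 17, 5.12% against 3.19%. Without the 8 regions near Vmn1r223, 10 of 324 were at least 2-fold lower, 3.09%. The receptor regions were thus close to the background in the higher direction and, without Vmn1r223, in the lower direction too. At least 4-fold higher were 15, 4.52% against 5.88%, and at least 4-fold lower 5, 1.51% against 0.324%; all 5 lay near Vmn1r223. Promoter regions had a median of 0.58 in 41 receptor regions against 0.05 in all promoter regions, and distal regions 0.36 against 0.37. The receptor promoter regions were weaker, with median reads of 42 in vehicle and 102 in TAMo against 280 and 358. The ratio also varied with mean reads (below 30, 30 to 60, 60 to 120, 120 or more). All shared regions had medians of -0.02, 0.34, 0.48 and 0.23 there, and receptor regions -0.13, 0.39, 0.65 and 0.36. Inside clusters the median was 0.58 over 155 regions and at edges 0.13 over 177.

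Among the regions with at least 30 reads in each library, the highest ratios were all at Olfr genes. Near Olfr522 on chromosome 7, a peak 1109 bp from the start had 56 reads in vehicle and 505 in TAMo, a log2 ratio of 2.87 (2.47 to 3.30). After Olfr552 came a region 8006 bp from the start of Olfr12 on chromosome 1, with 68 and 466 reads (2.47, 2.10 to 2.86), Olfr46, and a region near Olfr15 on chromosome 16 with 30 and 179 (2.27, 1.71 to 2.88). These regions were picked for their high ratios, so intervals above 0 add no support. The highest ratio at any depth was at a second Olfr222 peak, 500 bp from the start, with 18 and 213 reads (3.26, 2.57 to 4.04).

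**Figure D5:**
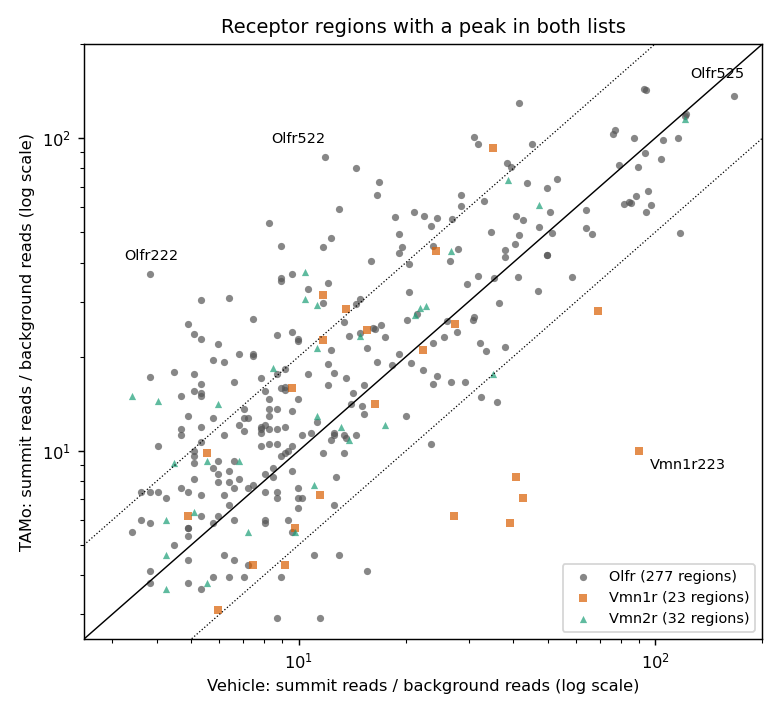
Summit reads divided by background reads in vehicle (horizontal, log scale) and TAMo (vertical, log scale) for the 332 receptor regions with a peak in both lists, by family; the solid line marks equality and dotted lines 2-fold differences. Most points near 100 times the background lie close to the solid line, and the Vmn1r regions far below it are those near Vmn1r223.

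The lowest ratios formed a group near Vmn1r223 on chromosome 13. This gene had 14 vehicle peaks and 9 TAMo peaks, all between about 20 and 60 kb from its start, most of them in the noncoding gene 4930557F10Rik; the next coding gene is the zinc finger gene Zfp322a. The strongest vehicle peak there (chr13:23298494-23299679) had 424 reads and the TAMo peak over it 58, a log2 ratio of -3.17 (-3.59 to -2.77). Other regions had 184 reads in vehicle and 34 in TAMo (-2.74), 200 and 41 (-2.59), 192 and 48 (-2.30), and 128 and 36 (-2.13). A vehicle peak of 207 reads there had no TAMo peak. The local background was 30.7 reads around the strongest vehicle peak and 8.88 around its TAMo counterpart. All 8 shared regions of Vmn1r223 were lower in TAMo, with a median of -2.22. Without them the median of the Vmn1r family was 0.65 over 15 regions, in place of -0.21 over 23, and that of all receptor regions was 0.42; no other receptor region was 4-fold lower.

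Peaks that overlapped none of the other list were ranked by −log10 q. The first 5 in TAMo were at Olfr61, with 366 reads at its promoter, Olfr457 on chromosome 6 with 224, Olfr1413 on chromosome 1 with 154, Olfr1260 on chromosome 2 with 164 at 361 bp from the start, and Olfr694 on chromosome 7 with 135. None of these 5 genes had a vehicle peak assigned to it. The first 5 in vehicle were near Vmn1r223 with 207 and with 68 reads, near Olfr1423 with 241, near Olfr60 with 58, and near Olfr370 on chromosome 8 with 39. A further Vmn1r223 peak without overlap had 79 reads but ranked lower. Olfr370 had 2 vehicle peaks and no TAMo peak.

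The genes with most peaks had many in both lists. Olfr1423 on chromosome 19 had 13 vehicle and 14 TAMo peaks, Olfr412 on chromosome 11 had 10 and 16, Vmn1r223 14 and 9, Olfr538 on chromosome 7 had 9 and 10, Olfr1373 on chromosome 11 had 8 and 10, and Olfr221 had 8 and 10. The Olfr1423 peaks sit in a stretch of raised coverage: their median local background was 98.1 reads in vehicle and 88.5 in TAMo, against 5.46 and 5.80 for receptor peaks in general. Most Olfr412 peaks lie in the coding gene Rap1gap2, a Rap1 regulator, which held 8 of the 10 vehicle peaks and 14 of the 16 TAMo peaks.

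Genes that act beside the receptors, in odour signalling and receptor choice, mostly had promoter peaks in both libraries. Of 24 such genes, 16 had a promoter peak in vehicle and 17 in TAMo, near the 61.7% and 64.1% of all coding genes. Many of the 24 are genes that other cells use too, such as Gnai2, an inhibitory G-protein subunit, with 1047 and 1206 reads. A ratio was available for 15 of the 24, with a median log2 of 0.01. Its interval lay above 0 at 4 and below 0 at 3, near the 26.7% and 17.6% of all coding genes with such a ratio. Above were Ebf4 (0.72, 0.31 to 1.13), Gng13 (0.68, 0.07 to 1.31), Lhx2 (0.27), a homeodomain factor of receptor choice, and Atf5 (0.15). Below were Gnao1 (-0.69, -1.10 to -0.29), the G-protein of Vmn2r neurons, Ebf1 (-0.42) and Adcy3 (-0.23), the cyclase of odour signalling. Gnal had a promoter peak of 42 reads in vehicle and of 283 in TAMo, but no ratio was available for it. No promoter peak was called in either library at Omp, the marker of mature olfactory neurons, at the channel genes Cnga4, Cngb1 and Ano2, or at Rtp1, Rtp2 and Stoml3. Trpc2, the channel of vomeronasal neurons, had a promoter peak of 25 reads in TAMo and none in vehicle.

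Marker genes of the sorted cells and of the added cells were read in the same way. All 12 CD8 T cell markers had a promoter peak in both libraries, with a summed coverage of 1278 times the background in vehicle and 1311 in TAMo. Of 12 myeloid markers, 1 had a promoter peak in vehicle and 5 in TAMo, with sums of 29.96 and 118: Cd14 had 141 and 411 reads, and Itgam (118), Csf1r (100), Adgre1 (31) and Fcgr3 (27) had one in TAMo alone. None was called at Ly6c2, Ly6c1, Lyz2, Ly6g, S100a8, S100a9 or Ccr2 in either library. B cell markers had 2 of 4 in both, with sums of 15.1 and 19.6. Olfactory neuron markers had 2 of 7 in both, Gnal and Adcy3. The 5 myeloid markers with a promoter peak in TAMo went in the same direction as the number of receptor peaks. The part of myeloid cells in that number was not tested. Fewer cells of a type and less open DNA per cell cannot be told apart in bulk libraries.

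Close to the bound of the rule, the farthest vehicle member lay 96867 bp from Vmn2r87 (20 reads) and the nearest peak outside 101213 bp from Olfr412 (33 reads). In TAMo these were 99922 bp from Olfr693 (40 reads) and 101212 bp from Olfr412 (42 reads). Beyond the bound, 49 vehicle peaks and 100 TAMo peaks had a receptor gene as the nearest coding start site.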

How the data were processed

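Open chromatin was profiled in 1 library per culture. Per the submitters' processing notes, Trimmomatic 0.36, Bowtie2 and MACS2 were used with the genome build mm10; settings, duplicate removal and read shifting were not given in the sources used here. Lists were deposited, 1 per library, and hold for each summit a score, a fold enrichment (ratio) over local background, a −log10 p and a −log10 q set by the authors' peak caller; the −log10 q served to rank and filter peaks inside each list, and the score was not used.

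Rows with the same interval were joined and represented by the summit with the highest −log10 q. The fold and −log10 p together give whole reads at the summit, matched to within 1% of a step; 30 vehicle rows and 48 TAMo rows gave none, no receptor peak among them. The most frequent background, 4.71 reads in vehicle and 5.80 in TAMo, stood for depth. Genes came from GENCODE M21 (GRCm38 basic annotation) and promoter sequences from RefSeq. Python 3.11.15, pandas 2.3.3 and scipy 1.17.1 were used. The lowest −log10 q was 1.32 and 1.34, so weak peaks depend on the calling threshold. Read recovery, nearest start sites and overlaps were tested on simulated data.

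The receptor genes, comparison lists and alternatives were chosen with earlier results of these data known. Named genes were those with the 10 strongest promoter peaks per library, the 6 with most peaks, the 6 strongest distal and 5 strongest peaks found in 1 list per library, and the 5 highest and 5 lowest coverage ratios with at least 30 reads in each library. Without replicates no test was run; shares have 95% Wilson intervals and coverage ratios 95% exact binomial intervals. Reads are not independent molecules, so these cover counting error only.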

Additional observations from a re-analysis of the deposited data

How the results depend on the processing

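No paired analysis was possible because each group is 1 library. Of 52 recomputed values, 10 moved past the bounds used, which were 1.5 times for counts and densities, the 95% Wilson interval for shares and the interquartile range over regions for the median coverage ratio. The median log2 coverage ratio of shared receptor regions, reported as 0.38, stayed above 0 under each alternative run but was 0.11 when centred on all shared regions and 0.61 without peaks within 100 kb of another coding start site. When only as many of the strongest TAMo peaks were kept as vehicle had, TAMo had 476 receptor peaks, of which 60.7% overlapped a vehicle peak, and 75.1% of vehicle receptor peaks overlapped a TAMo peak. With a promoter window of 2.5 kb the promoter share was 23.0% in vehicle and 32.3% in TAMo. Without peaks within 100 kb of the start site of another coding gene, an alternative added after seeing the data, 108 vehicle and 324 TAMo receptor peaks were left. Of these, 9.26% and 22.5% were promoter peaks, and 29.0% of the TAMo peaks overlapped a vehicle peak. Without peaks between T cell receptor alpha and delta segments or in another coding gene, also added after seeing the data, 378 and 769 were left. The like shares over all peaks under these alternatives are not given here. Weak peaks depend on the calling threshold, and 1 library per group leaves the spread between cultures unmeasured.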
